A study of Saccharomyces cerevisiae with 10 samples.

Results

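The genes described here are 37 genes of Saccharomyces cerevisiae that code for the enzymes, carriers and regulators of the tricarboxylic acid (TCA) cycle, the glyoxylate cycle, gluconeogenesis and the use of ethanol, acetate and lactate. They were chosen by name from a list of such genes, by a rule that reads no measured value, and all 37 were found among the 5824 features in the table. RNA was sequenced from 10 cultures, 2 independent cultures of each of 5 strains. Each of the overexpression strains holds a low-copy centromeric plasmid with 1 essential gene under its own promoter and terminator. The gene is LSM5 (mRNA decay) in LSM5-OE, TIF35 (translation initiation factor eIF3) in TIF35-OE, UTP6 (ribosomal RNA processing) in UTP6-OE and PRP22 (a splicing helicase) in PRP22-OE. The WT control served as the comparison, and in the lifespan assays of the study it held the empty vector. All strains derive from BY4741, a haploid laboratory strain of mating type a. Cultures grew on medium lacking uracil, so that cells need the URA3 gene of the plasmid, and were collected in growth at an OD600 of 0.4. Colonies of each transformation were kept as frozen stocks, and the sources used here do not say whether both cultures of a strain came from 1 colony, so their spread may not include differences between clones.

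Yeast growing on glucose ferments it to ethanol and keeps most of these genes low. When glucose runs out, the kinase Snf1 switches off the repressor Mig1 and activates the transcription factors Adr1 and Cat8. These turn on the enzymes that carry ethanol and acetate through acetyl-CoA into the glyoxylate cycle and gluconeogenesis. The TCA cycle is different, because growing cells use its first steps, from citrate synthase to isocitrate dehydrogenase, to make 2-oxoglutarate for glutamate. The retrograde factors Rtg1 and Rtg3 adjust these first steps and the peroxisomal citrate synthase CIT2 to the state of the mitochondria and to the supply of glutamate. CIT2 is the classical reporter gene of that pathway.

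The overexpressed gene was higher in its own strain than in WT for each of the 4 strains, by a log2 fold change of 1.95 for LSM5, 1.37 for TIF35, 1.32 for UTP6 and 1.08 for PRP22. LSM5 was also higher in TIF35-OE (1.05, adjusted p = 0.0374), and its values in UTP6-OE (0.74, adjusted p = 0.1105) and PRP22-OE (0.70, adjusted p = 0.1585) did not pass. PRP22 was lower in TIF35-OE (-0.32, adjusted p = 0.0321). The mating type a receptor gene STE2 lay between 420 and 611 FPKM (fragments scaled to gene length and to library size), and the alpha receptor gene STE3 between 12.9 and 17.3 FPKM. The plasmid marker URA3 lay between 625 and 937 FPKM, with both WT cultures highest. HIS3, on a list of genes deleted in BY4741, lay between 148 and 247 FPKM, and the source of these values was not tested. It was higher in TIF35-OE (0.59, adjusted p = 0.0108). MFA1, MFA2, LEU2 and MET17, also chosen as strain markers, were not found by name among the features. The depth, estimated from the spacing of low FPKM values, was 13453530 to 17366126 fragments per library. The estimated fragment length was 309 to 314 bases in 7 libraries. It was 282 to 284 bases in TIF35-OE culture 1, UTP6-OE culture 1 and PRP22-OE culture 2, so those 3 libraries stand apart. LSM5 was higher in each of those 3 libraries than in the other culture of the same strain. The values were 676 against 530 FPKM in TIF35-OE, 613 against 381 in UTP6-OE and 553 against 399 in PRP22-OE. Both WT libraries, at 268 and 312 FPKM, had the longer fragments. The part of fragment length in the LSM5 differences was not tested. Over these genes the estimate ran from 24 fragments (SFC1) to 19578 (CIT2), and all 37 passed the filter of a mean of at least 1 FPKM.

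Binding sites of the factors named above are known upstream of several of the genes. The sequences below are shown because the genes that carry them are those whose levels are compared later, and they were read from the RefSeq R64 genome of strain S288c, 5′ to 3′ on the strand of the gene. The capitals mark matches to the carbon source response element (CSRE, bound by Cat8 and Sip4), found on either strand in the 600 bases upstream of the start codon.
ICL1 (chrV:287293-287322, minus strand): ccccaggttTCCATTCATCCGagcgatcac
MLS1 (chrXIV:405826-405869, plus strand): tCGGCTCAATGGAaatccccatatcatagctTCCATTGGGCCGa
MDH2 (chrXV:83286-83354, minus strand): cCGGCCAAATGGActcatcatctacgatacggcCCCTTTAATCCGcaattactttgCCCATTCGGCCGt
PCK1 (chrXI:630661-630690, plus strand): aaccgagctTCCTTTCATCCGgcgcggctg
FUM1 (chrXVI:46992-47021, plus strand): tcaggccccTCCCCTGAGCCGatcctcgga

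The CSRE consensus matched upstream of these 5 of the 37 genes (13.5%), and upstream of 33 of the 5999 protein-coding genes with a full window (0.55%). MLS1 had 2 matches and MDH2 had 3. In the next set the capitals mark GTCAC, the core of the box bound by Rtg1 and Rtg3, which is GTGAC where it lies on the other strand. DLD3 is a retrograde target outside the 37 genes and is shown for comparison with CIT2.
CIT2 (chrIII:122635-122674, minus strand): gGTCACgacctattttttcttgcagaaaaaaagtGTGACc
PYC1 (chrVII:384696-384725, plus strand): aggagacacagcGTCACgtgttttgccatt
DLD3 (chrV:16191-16220, plus strand): gttgGTGACcgccaaatctaaGTCACgcgc

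Short motifs such as these are common. GTCAC matched upstream of 25 of the 37 genes (67.6%) and of 49.2% of all protein-coding genes. The HAP box CCAAT matched upstream of 32 (86.5%, against 70.3%). TTGGAG or TTGGGG, the core of the Adr1 site, matched upstream of 20 (54.1%, against 32.1%), and GCGGGG or GTGGGG, the core of the Mig1 site, upstream of 16 (43.2%, against 16.5%). An Adr1 core that follows an A also holds CCAAT on the other strand, so those 2 searches overlap. The Adr1 cores of ADH2 form an inverted repeat, and CAT8 had 2 Mig1 cores, shown here with the cores in capitals. Among the genes described below as lower in all 4 strains, GTCAC matched upstream of CIT2 and PYC1 but not of ADR1. Among those described as higher in all 4 strains, it matched upstream of PYC2, LSC2 and ALD4 but not of LSC1 or MDH1. A match describes letters and does not show that a factor binds there.
ADH2, Adr1 core (chrXIII:874604-874633, minus strand): ggcatCTCCAActtataagTTGGAGaaata
CAT8, Mig1 core (chrXIII:831535-831564, minus strand): agcgGCGGGGctgatattttGTGGGGtacg

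Against WT, the largest falls among the 37 genes were those of CIT2, ADR1, PYC1 and CIT3, and the largest rises, which were smaller, were those of ALD4, PYC2 and MDH1. Differences were tested with limma on log2(FPKM + 0.5) over all 5768 features that passed the filter, with Benjamini-Hochberg adjustment, two-sided and a threshold of 0.05. In LSM5-OE 6 of the 37 genes were higher and 3 lower (24.3% together), where 7.65% of all tested features passed, 4.7% higher and 2.95% lower. In TIF35-OE 7 were higher and 9 lower (43.2%), against 30.3% of all features, 9.62% higher and 20.7% lower. In UTP6-OE 7 were higher and 13 lower (54.1%), against 29.1%, 9.95% higher and 19.1% lower. In PRP22-OE 6 were higher and 8 lower (37.8%), against 19.3%, 7.09% higher and 12.2% lower. The median log2 fold change of the 37 genes was 0.079 in LSM5-OE, -0.14 in TIF35-OE, -0.32 in UTP6-OE and -0.023 in PRP22-OE, and that of all tested features was -0.013, -0.096, -0.069 and -0.051 in the same order. All 4 comparisons use the same 2 WT cultures. In bulk RNA, fewer cells that express a gene and less RNA of it per cell cannot be told apart.

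Scaling changed the balance of directions. Of all features past the threshold, 61.5% were higher in LSM5-OE, 31.8% in TIF35-OE, 34.2% in UTP6-OE and 36.7% in PRP22-OE, and after rescaling by the median of ratios these shares were 61.9%, 57.1%, 54.4% and 54.1%. With that scaling the 37 genes gave 8 higher and 3 lower in LSM5-OE, 11 and 6 in TIF35-OE, 8 and 11 in UTP6-OE and 8 and 7 in PRP22-OE. Of all 5768 tested features, 578, 1709, 1881 and 1266 passed with it in the same order of strains. Such totals over all features are not given here for the fits that leave out 1 library. Leaving out 1 library at a time kept 1 of the 9 calls in LSM5-OE (ALD4), 6 of 16 in TIF35-OE (CIT2, LSC1, MDH1, PYC1, PYC2 and ADR1), 11 of 20 in UTP6-OE (CIT2, CIT3, ACO1, IDH1, LSC1, MDH1, PYC1, PYC2, ADR1, JEN1 and YAT2) and 8 of 14 in PRP22-OE (CIT2, CIT3, LSC2, MDH1, PYC1, PYC2, ADR1 and ALD4). Without WT culture 1 the higher and lower genes numbered 1 and 0 in LSM5-OE, 6 and 3 in TIF35-OE, 3 and 8 in UTP6-OE and 5 and 4 in PRP22-OE. Without WT culture 2 they numbered 1 and 1, 3 and 4, 3 and 9, and 4 and 5 in the same order of strains. The counts also moved by more than 1.5 times without TIF35-OE culture 1 (4 lower), TIF35-OE culture 2 (3 higher), UTP6-OE culture 2 (3 higher) and PRP22-OE culture 2 (4 lower).

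**Figure D1:**
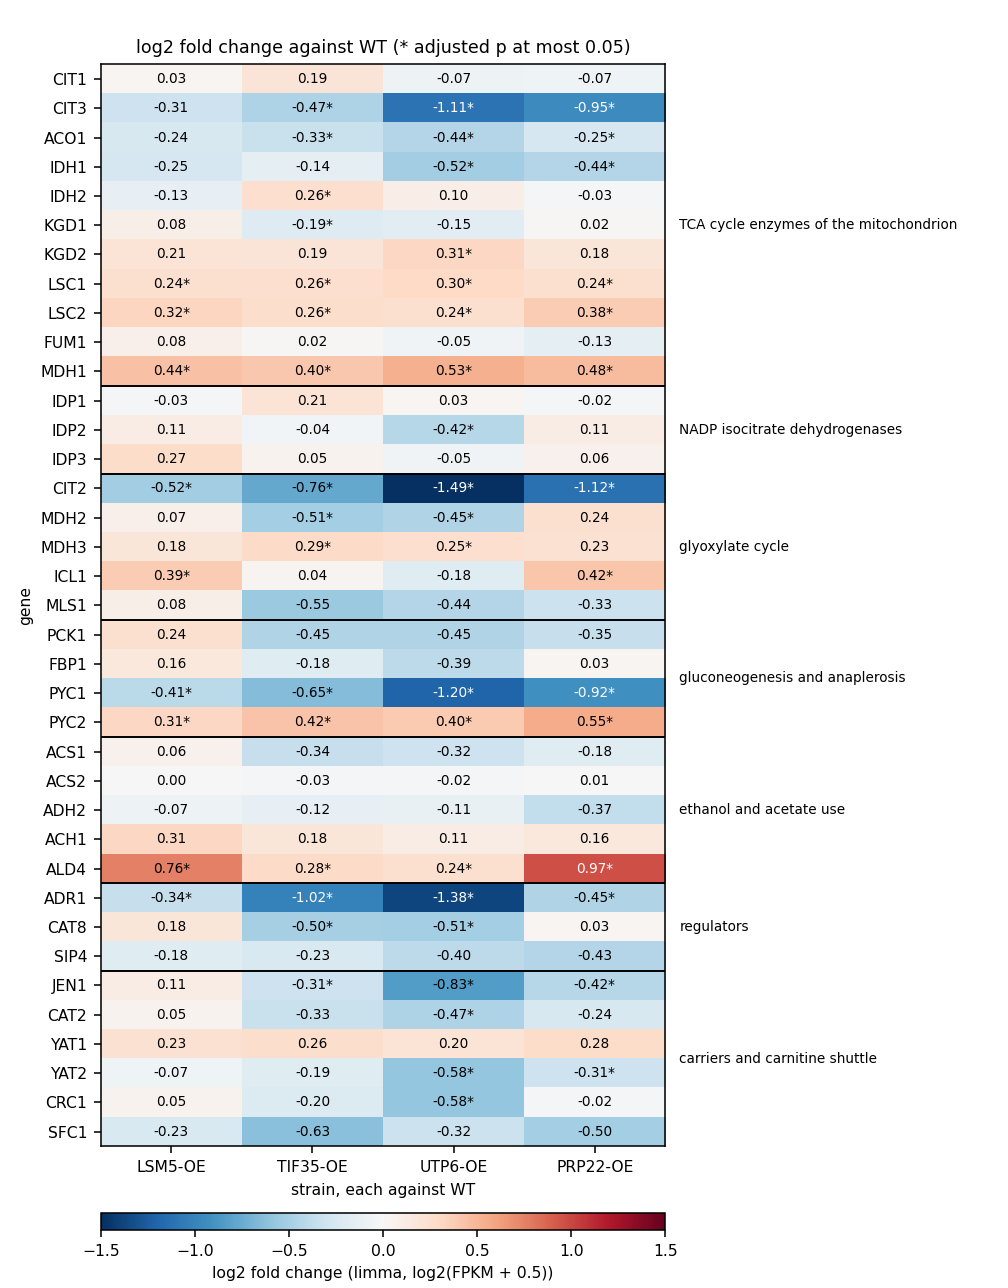
Heat map of the log2 fold change against WT of the 37 genes (rows, grouped by role) in the 4 overexpression strains (columns), with the value in each cell and an asterisk where the adjusted p was at most 0.05. CIT2, PYC1 and ADR1 carry an asterisk on the blue side in all 4 columns, and LSC1, LSC2, MDH1, PYC2 and ALD4 on the red side.

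Of the 37 genes, 8 passed the threshold in the same direction in all 4 strains. CIT2, PYC1 and ADR1 were lower (8.11% of the 37 genes, against 1.66% of all tested features), and LSC1, LSC2, MDH1, PYC2 and ALD4 were higher (13.5%, against 2.72%). Of the other genes, 15 passed in 1 to 3 strains and 14 in none, and 0 passed in opposite directions in different strains. The matching shares of all tested features are not given here, so these counts do not set the 37 genes apart.

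CIT2 (YCR005C, chromosome III, 120946 to 122328, minus strand) codes for the peroxisomal citrate synthase of the glyoxylate cycle. Its level was 843 and 783 FPKM in LSM5-OE, 664 and 704 in TIF35-OE, 408 and 417 in UTP6-OE, 566 and 508 in PRP22-OE, against 1174 and 1151 in WT. Every overexpression culture lay below both WT cultures, with UTP6-OE lowest. The log2 fold change was -0.52 ± 0.068 in LSM5-OE (SE, adjusted p = 0.00567), -0.76 ± 0.068 in TIF35-OE (0.000295), -1.49 ± 0.068 in UTP6-OE (7.18e-06) and -1.12 ± 0.068 in PRP22-OE (3.85e-05). Under the 16 alternatives the adjusted p in LSM5-OE ran from 4.21e-06 to 0.0613, and it was above 0.05 without WT culture 1. In the other 3 strains the call held under each alternative.

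CIT1, the mitochondrial citrate synthase, stayed between 444 and 580 FPKM in all cultures and passed the threshold in none of the strains (log2 fold changes from -0.071 to 0.19). With the median of ratios its difference in TIF35-OE passed (adjusted p = 0.0120). The ratio of CIT2 to CIT1 within a culture was 1.68 and 1.63 in LSM5-OE, 1.26 and 1.21 in TIF35-OE, 0.917 and 0.879 in UTP6-OE, 1.18 and 1.14 in PRP22-OE, against 2.45 and 2.36 in WT. CIT2 RNA was thus above CIT1 RNA in WT, LSM5-OE, TIF35-OE and PRP22-OE, and below it in UTP6-OE. The coding sequences of CIT1 and CIT2 were 74.5% identical, and 0 stretches of 50 bases of either were found elsewhere in the genome.

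CIT3 (YPR001W, chromosome XVI, 556377 to 557837, plus strand) codes for a mitochondrial citrate and methylcitrate synthase of low level. It had 24.3 and 24.5 FPKM in LSM5-OE, 19.8 and 23.9 in TIF35-OE, 14.8 and 12.9 in UTP6-OE, 15.3 and 15.5 in PRP22-OE, against 30.3 and 30.3 in WT. Both WT cultures were above all others. It was lower by a log2 fold change of -0.47 ± 0.10 in TIF35-OE (SE, adjusted p = 0.0140), -1.11 ± 0.10 in UTP6-OE (0.000209) and -0.95 ± 0.10 in PRP22-OE (0.000687). In LSM5-OE the value was -0.31 ± 0.10 (0.123), which did not pass. The TIF35-OE call was lost without TIF35-OE culture 1 or either WT culture (adjusted p from 0.00375 to 0.126 over the alternatives).

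PYC1 and PYC2 are the cytosolic pyruvate carboxylases, which make oxaloacetate and so refill the TCA cycle and feed gluconeogenesis. They moved in opposite directions in every strain. PYC1 (YGL062W, chromosome VII, 385196 to 388732, plus strand) had 139 and 148 FPKM in LSM5-OE, 117 and 125 in TIF35-OE, 80.6 and 84.2 in UTP6-OE, 98.4 and 103 in PRP22-OE, against 191 and 189.6 in WT. PYC2 (YBR218C, chromosome II, 658707 to 662249, minus strand) had 99.0 and 109 FPKM in LSM5-OE, 108 and 117 in TIF35-OE, 109.7 and 111 in UTP6-OE, 125 and 120.2 in PRP22-OE, against 83.3 and 83.8 in WT. For neither gene did an overexpression culture overlap WT. The log2 fold change of PYC1 was -0.41 ± 0.056 in LSM5-OE (SE, adjusted p = 0.00679), -0.65 ± 0.056 in TIF35-OE (0.000265), -1.20 ± 0.056 in UTP6-OE (7.70e-06) and -0.92 ± 0.056 in PRP22-OE (3.86e-05). That of PYC2 was 0.31 ± 0.063 in LSM5-OE (SE, adjusted p = 0.0257), 0.42 ± 0.063 in TIF35-OE (0.00283), 0.40 ± 0.063 in UTP6-OE (0.00299) and 0.55 ± 0.063 in PRP22-OE (0.000894).

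In LSM5-OE the PYC1 call was lost without either WT culture (adjusted p from 6.18e-05 to 0.0795 over the alternatives), and the PYC2 call without LSM5-OE culture 2 or either WT culture (0.00161 to 0.1498). In the other strains both genes kept their calls when any 1 of the 4 libraries compared was left out. The ratio of PYC1 to PYC2 was 1.40 and 1.36 in LSM5-OE, 1.09 and 1.07 in TIF35-OE, 0.735 and 0.761 in UTP6-OE, 0.784 and 0.855 in PRP22-OE, against 2.29 and 2.26 in WT. PYC1 RNA was above PYC2 RNA in WT, LSM5-OE and TIF35-OE and below it in UTP6-OE and PRP22-OE. The coding sequences were 85.5% identical, and 8.46% of the 50-base stretches of PYC1 were also found elsewhere in the genome (8.44% for PYC2), so a part of their fragments could be split between them.

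**Figure D2:**
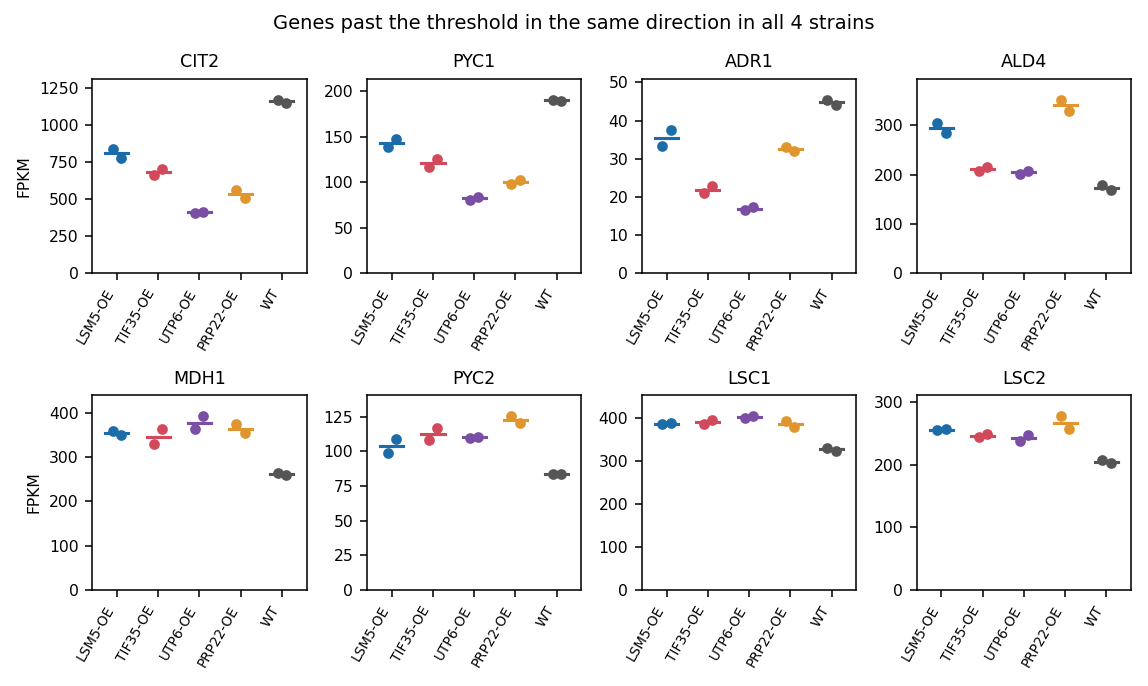
FPKM (vertical axis, starting at 0) of the 8 genes past the threshold in the same direction in all 4 strains, with a point for each culture and a line for the mean of the 2 cultures. The WT points of CIT2, PYC1 and ADR1 lie above all others, and those of ALD4, MDH1, PYC2, LSC1 and LSC2 below.

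DLD3, a cytosolic D-lactate dehydrogenase gene under retrograde control, is described beside CIT2 because it was on the list of retrograde genes. It had 1076 and 1111 FPKM in LSM5-OE, 894 and 946 in TIF35-OE, 581 and 617 in UTP6-OE, 765 and 733 in PRP22-OE, against 1597 and 1567 in WT. It passed as lower in each strain. Its difference on the log2 scale was -0.53 ± 0.056 in LSM5-OE (SE, adjusted p = 0.00205), -0.78 ± 0.056 in TIF35-OE (0.000122), -1.40 ± 0.056 in UTP6-OE (5.32e-06) and -1.08 ± 0.056 in PRP22-OE (2.55e-05). Of the 4 genes on that list that code for the regulators (RTG1, RTG2, RTG3 and MKS1), RTG1 was lower in TIF35-OE (-0.82 ± 0.12, SE, adjusted p = 0.00260) and in UTP6-OE (-0.61 ± 0.12, adjusted p = 0.00773), and the other 3 passed in none of the strains.

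ACO1, aconitase, lay between 583 and 605 FPKM in WT and between 425 and 516 FPKM in the 8 overexpression cultures. It was lower in TIF35-OE (-0.33 ± 0.069, log2 ± SE, adjusted p = 0.0112), UTP6-OE (-0.44 ± 0.069, adjusted p = 0.00307) and PRP22-OE (-0.25 ± 0.069, adjusted p = 0.0389). The PRP22-OE difference was not past the threshold with the median of ratios (0.0606) or without any 1 of the 4 libraries compared, and the TIF35-OE difference was lost without TIF35-OE culture 1 or WT culture 1.

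IDH1 and IDH2 code for the paired subunits of the NAD-dependent isocitrate dehydrogenase and are given in full because they differed from each other, which was seen in their values. IDH1 had 352 and 329 FPKM in LSM5-OE, 361 and 374 in TIF35-OE, 266 and 299 in UTP6-OE, 327 and 269.6 in PRP22-OE, against 404 and 404 in WT. IDH2 had 433 and 449.8 FPKM in LSM5-OE, 559 and 593 in TIF35-OE, 516 and 519 in UTP6-OE, 473 and 474 in PRP22-OE, against 489 and 475 in WT. IDH1 was lower in UTP6-OE (-0.52 ± 0.10, log2 ± SE, adjusted p = 0.00644) and PRP22-OE (-0.44 ± 0.10, adjusted p = 0.0169), while IDH2 was higher in TIF35-OE (0.26 ± 0.049, adjusted p = 0.00832). The ratio of IDH1 to IDH2 was 0.814 and 0.731 in LSM5-OE, 0.646 and 0.631 in TIF35-OE, 0.516 and 0.577 in UTP6-OE, 0.693 and 0.569 in PRP22-OE, against 0.828 and 0.850 in WT. The ratio was below both WT values in every overexpression culture. The IDH1 call in PRP22-OE was lost without PRP22-OE culture 2 or either WT culture, and the IDH2 call in TIF35-OE without TIF35-OE culture 2 or WT culture 2.

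LSC1 and LSC2, the alpha and beta subunits of succinyl-CoA ligase, were higher in all 4 strains. LSC1 (YOR142W, chromosome XV, 593057 to 594046, plus strand) had 386 and 386 FPKM in LSM5-OE, 386 and 395 in TIF35-OE, 399 and 403 in UTP6-OE, 391 and 379 in PRP22-OE, against 330.1 and 323 in WT. LSC2 (YGR244C, chromosome VII, 978036 to 979319, minus strand) had 256 and 257 FPKM in LSM5-OE, 244 and 249 in TIF35-OE, 238 and 249 in UTP6-OE, 278 and 257 in PRP22-OE, against 207 and 203 in WT. Each overexpression culture was above both WT cultures for either subunit. The log2 fold change of LSC1 was 0.24 ± 0.043 in LSM5-OE (SE, adjusted p = 0.0174), 0.26 ± 0.043 in TIF35-OE (0.00500), 0.30 ± 0.043 in UTP6-OE (0.00211) and 0.24 ± 0.043 in PRP22-OE (0.00826), and that of LSC2 was 0.32 ± 0.052 in LSM5-OE (SE, adjusted p = 0.0122), 0.26 ± 0.052 in TIF35-OE (0.00951), 0.24 ± 0.052 in UTP6-OE (0.0117) and 0.38 ± 0.052 in PRP22-OE (0.00228). In LSM5-OE the calls were lost without either WT culture (adjusted p over the alternatives from 0.00402 to 0.132 for LSC1 and 0.000563 to 0.0946 for LSC2). LSC1 was also lost without LSM5-OE culture 1 in that strain and without WT culture 2 in PRP22-OE, and LSC2 without WT culture 2 or the second culture of the strain in TIF35-OE and UTP6-OE, and without WT culture 1 in UTP6-OE.

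MDH1 (YKL085W, chromosome XI, 279123 to 280127, plus strand), the mitochondrial malate dehydrogenase that closes the cycle, had 359 and 349 FPKM in LSM5-OE, 329 and 363 in TIF35-OE, 363 and 392 in UTP6-OE, 374 and 354 in PRP22-OE, against 264 and 258 in WT. The lowest overexpression culture was above both WT cultures. Its log2 fold change was 0.44 ± 0.065 in LSM5-OE (SE, adjusted p = 0.00926), 0.40 ± 0.065 in TIF35-OE (0.00421), 0.53 ± 0.065 in UTP6-OE (0.000904) and 0.48 ± 0.065 in PRP22-OE (0.00226). In LSM5-OE the call was lost without either WT culture (adjusted p from 6.14e-05 to 0.0731 over the alternatives), and in the other strains it held under each of them.

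KGD1 and KGD2 code for components of the 2-oxoglutarate dehydrogenase. KGD2 (YDR148C, chromosome IV, 753675 to 755066, minus strand) had 207 and 214 FPKM in LSM5-OE, 199.6 and 215 in TIF35-OE, 220.5 and 231 in UTP6-OE, 218 and 194 in PRP22-OE, against 183 and 181 in WT, so that all overexpression cultures were above WT. It passed the threshold in UTP6-OE (0.31 ± 0.067, log2 ± SE, adjusted p = 0.0122), not without UTP6-OE culture 2 or either WT culture, and with the median of ratios it passed in all 4 strains (0.0021 to 0.0482). KGD1 was lower in TIF35-OE (-0.19 ± 0.057, adjusted p = 0.0391), a call that was lost without any 1 of the 4 libraries compared and with the median of ratios (0.179). FUM1, fumarase, lay between 264 and 321 FPKM and passed in none of the strains.

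Of 12 further genes of the cycle and of pyruvate dehydrogenase on a separate list, 3 were higher and 1 lower in LSM5-OE, 3 higher and 0 lower in TIF35-OE, 3 higher and 0 lower in UTP6-OE and 4 higher and 0 lower in PRP22-OE. Among all tested features 7.65%, 30.3%, 29.1% and 19.3% passed in either direction, in the same order of strains. The share of the 12 was above this in LSM5-OE and PRP22-OE and below it in TIF35-OE and UTP6-OE. Higher alone were 4.7%, 9.62%, 9.95% and 7.09% of all tested features, and the share of the 12 was above that in each strain. The 12 genes were listed with earlier results of these data known, so these shares do not test the list. SDH2, the iron-sulfur subunit of succinate dehydrogenase, was higher in all 4 strains (from 0.26 in TIF35-OE to 0.42 in UTP6-OE on the log2 scale). LPD1, the lipoamide dehydrogenase shared by the 2-oxoacid dehydrogenases, was also higher in all 4 (from 0.22 in LSM5-OE to 0.34 in UTP6-OE). The pyruvate dehydrogenase genes PDA1, PDB1, LAT1 and PDX1 passed in none of the strains. Of the HAP complex, the activator of respiratory genes at CCAAT boxes, HAP2 was higher in all 4 strains (from 0.42 in TIF35-OE to 0.57 in UTP6-OE) and HAP4 in PRP22-OE (0.33).

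Of the NADP-dependent isocitrate dehydrogenases, IDP1 (mitochondrial, 219 to 281 FPKM) and IDP3 (peroxisomal, 10.3 to 14.3 FPKM) passed in none of the strains. With the median of ratios IDP1 was higher in TIF35-OE (limma adjusted p = 0.0173). IDP2, the cytosolic enzyme that glucose represses, had 11.2 and 13.3 FPKM in UTP6-OE, against 18.2 and 15.04 FPKM in WT, and was lower there (-0.42 ± 0.12, log2 ± SE, adjusted p = 0.0298). The call was lost without UTP6-OE culture 1 or WT culture 1 (adjusted p from 0.0239 to 0.268 over the alternatives).

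In the glyoxylate cycle, CIT2 (described above), ICL1 and MDH2 differed among the overexpression strains by the moderated F-test of limma. MDH3 and MLS1 did not pass it (adjusted p = 0.612 and 0.170). ICL1 (YER065C, chromosome V, 285241 to 286914, minus strand), isocitrate lyase, the enzyme that opens the cycle, had 42.7 and 40.3 FPKM in LSM5-OE, 30.1 and 35.0 in TIF35-OE, 27.5 and 28.1 in UTP6-OE, 45.9 and 39.4 in PRP22-OE, against 31.6 and 31.6 in WT. It was higher in LSM5-OE (0.39 ± 0.094, log2 ± SE, adjusted p = 0.0481) and PRP22-OE (0.42 ± 0.094, adjusted p = 0.0187), whose cultures lay above WT. The value was 0.036 ± 0.094 in TIF35-OE (0.792), whose cultures overlapped WT, and -0.18 ± 0.094 in UTP6-OE (0.178), whose cultures lay below it. The LSM5-OE call was lost without any 1 of the 4 libraries compared (adjusted p from 0.0109 to 0.206 over the alternatives) and the PRP22-OE call without PRP22-OE culture 1 or either WT culture (0.00202 to 0.0963).

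MDH2, the cytosolic malate dehydrogenase of the glyoxylate cycle and gluconeogenesis, is given in full because its values differed between strains. It had 285 and 283 FPKM in LSM5-OE, 169.6 and 212 in TIF35-OE, 191 and 204 in UTP6-OE, 340.0 and 300.4 in PRP22-OE, against 267 and 273 in WT. It was lower in TIF35-OE (-0.51 ± 0.10, log2 ± SE, adjusted p = 0.0108) and in UTP6-OE (-0.45 ± 0.10, adjusted p = 0.0153), while LSM5-OE (0.072 ± 0.10, adjusted p = 0.748) and PRP22-OE (0.24 ± 0.10, adjusted p = 0.152) had cultures above WT and did not pass. Both calls were lost without either WT culture, and that of UTP6-OE also without UTP6-OE culture 1. The ratio of MDH2 to MDH1 was 0.793 and 0.811 in LSM5-OE, 0.515 and 0.585 in TIF35-OE, 0.525 and 0.519 in UTP6-OE, 0.908 and 0.850 in PRP22-OE, against 1.01 and 1.06 in WT. It was lower in TIF35-OE and UTP6-OE than in the other strains, with no overlap.

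MDH3 (YDL078C, chromosome IV, 315357 to 316388, minus strand), the peroxisomal malate dehydrogenase, had 336 and 292 FPKM in LSM5-OE, 343 and 334 in TIF35-OE, 323 and 336 in UTP6-OE, 336 and 312 in PRP22-OE, against 275 and 278 in WT. It was higher in TIF35-OE (0.29 ± 0.073, log2 ± SE, adjusted p = 0.0226) and UTP6-OE (0.25 ± 0.073, adjusted p = 0.0373), and the values in LSM5-OE (0.18 ± 0.073, adjusted p = 0.205) and PRP22-OE (0.23 ± 0.073, adjusted p = 0.0677) did not pass although all cultures were above WT. Each of the 2 calls was lost without any 1 of the 4 libraries compared. MLS1, malate synthase, lay between 3.20 and 6.43 FPKM on 63 to 127 estimated fragments and passed in none of the strains. The 3 malate dehydrogenase genes were 64.6% to 67.7% identical to each other, and 0 of their 50-base stretches were found elsewhere in the genome.

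The enzymes particular to gluconeogenesis were low. PCK1, phosphoenolpyruvate carboxykinase, lay between 6.37 and 11.8 FPKM, and FBP1, fructose-1,6-bisphosphatase, between 8.27 and 16.5 FPKM. Neither passed against WT in any strain (adjusted p from 0.0869 to 0.482 for PCK1 and 0.239 to 0.948 for FBP1), where the depth was 93 to 237 estimated fragments per library. PCK1 was lower in TIF35-OE than in LSM5-OE, with a log2 difference of -0.69 ± 0.17 (SE, adjusted p = 0.0445, 0.00913 to 0.266 over the alternatives), and lower in UTP6-OE than in LSM5-OE, with -0.70 ± 0.17 (SE, adjusted p = 0.0265, 0.00461 to 0.120 over the alternatives), but the test for any difference among the 4 strains did not pass for it (adjusted p = 0.0533).

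The regulators followed different patterns. ADR1 (YDR216W, chromosome IV, 895035 to 899006, plus strand), the activator of alcohol, glycerol and fatty acid use, had 33.2 and 37.5 FPKM in LSM5-OE, 21.0 and 22.9 in TIF35-OE, 16.6 and 17.3 in UTP6-OE, 33.1 and 32.1 in PRP22-OE, against 45.5 and 44.2 in WT. All overexpression cultures were below WT, and those of TIF35-OE and UTP6-OE were below those of the other strains. The log2 fold change was -0.34 ± 0.076 in LSM5-OE (SE, adjusted p = 0.0379), -1.02 ± 0.076 in TIF35-OE (0.000145), -1.38 ± 0.076 in UTP6-OE (1.57e-05) and -0.45 ± 0.076 in PRP22-OE (0.00571). In LSM5-OE the call was lost without LSM5-OE culture 1 or either WT culture. In the other strains it held when any 1 of the 4 libraries compared was left out.

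CAT8 (YMR280C, chromosome XIII, 827028 to 831329, minus strand), the activator of gluconeogenic genes through the CSRE, had 8.84 and 9.09 FPKM in LSM5-OE, 4.98 and 5.86 in TIF35-OE, 5.81 and 4.97 in UTP6-OE, 8.08 and 7.98 in PRP22-OE, against 8.06 and 7.66 in WT. It was lower in TIF35-OE (-0.50 ± 0.14, log2 ± SE, adjusted p = 0.0341) and UTP6-OE (-0.51 ± 0.14, adjusted p = 0.0328), and the values in LSM5-OE (0.18 ± 0.14, adjusted p = 0.529) and PRP22-OE (0.029 ± 0.14, adjusted p = 0.911) did not pass. Each of these calls was lost without any 1 of the 4 libraries compared, and that of TIF35-OE also with the median of ratios (0.0542). SIP4 (YJL089W, chromosome X, 265926 to 268415, plus strand), the other CSRE factor, had 5.25 and 4.84 FPKM in LSM5-OE, 5.53 and 4.25 in TIF35-OE, 3.93 and 4.64 in UTP6-OE, 4.36 and 3.96 in PRP22-OE, against 4.78 and 6.99 in WT and passed in none of the strains. Of the 5 genes with a CSRE match, ICL1 was higher in LSM5-OE and PRP22-OE, MDH2 was lower in TIF35-OE and UTP6-OE, and MLS1, PCK1 and FUM1 passed in none.

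Among the genes of ethanol and acetate use, ALD4 changed. ALD4 (YOR374W, chromosome XV, 1039840 to 1041399, plus strand), the main mitochondrial aldehyde dehydrogenase, had 304 and 285 FPKM in LSM5-OE, 208 and 215 in TIF35-OE, 202 and 208 in UTP6-OE, 352 and 329 in PRP22-OE, against 178 and 169.7 in WT. Every overexpression culture was above WT, and PRP22-OE and LSM5-OE were highest. The log2 fold change was 0.76 ± 0.057 in LSM5-OE (SE, adjusted p = 0.000437), 0.28 ± 0.057 in TIF35-OE (0.0104), 0.24 ± 0.057 in UTP6-OE (0.0186) and 0.97 ± 0.057 in PRP22-OE (3.36e-05). The calls in TIF35-OE and UTP6-OE were lost without WT culture 2 or the second culture of the strain, and that in UTP6-OE also without the other culture or WT culture 1 (adjusted p from 0.000534 to 0.102 and 0.00178 to 0.118 over the alternatives), and those in LSM5-OE and PRP22-OE held under each alternative.

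The other 4 genes of this group passed in none of the strains in the main fit. With the median of ratios, 2 of the 5 genes of the group were higher in LSM5-OE and 2 in TIF35-OE. ADH2, the alcohol dehydrogenase that oxidises ethanol, lay between 22.8 and 38.1 FPKM, and 14% of its 50-base stretches were found elsewhere in the genome. ACS1, the acetyl-CoA synthetase that glucose represses, lay between 9.89 and 14.6 FPKM and its glucose-independent partner ACS2 between 317 and 346 FPKM. ACH1, which transfers CoA to acetate, lay between 77.1 and 98.8 FPKM in the overexpression strains and between 74.0 and 75.7 FPKM in WT (adjusted p from 0.055 in LSM5-OE to 0.318 in UTP6-OE).

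Carriers of the group were lower where they passed. JEN1, the lactate and pyruvate permease of the plasma membrane, is given in full because its values differed between strains. It had 29.4 and 26.9 FPKM in LSM5-OE, 20.5 and 21.5 in TIF35-OE, 14.3 and 14.5 in UTP6-OE, 20.7 and 18.0 in PRP22-OE, against 27.6 and 24.6 in WT. It was lower in TIF35-OE (-0.31 ± 0.10, log2 ± SE, adjusted p = 0.0449), UTP6-OE (-0.83 ± 0.10, adjusted p = 0.000612) and PRP22-OE (-0.42 ± 0.10, adjusted p = 0.0195), and LSM5-OE overlapped WT. The UTP6-OE call held under each alternative, the TIF35-OE call was lost without any 1 of the 4 libraries compared and with the median of ratios (0.126), and the PRP22-OE call was lost without PRP22-OE culture 2 or WT culture 1.

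The carnitine shuttle carries acetyl groups into mitochondria. Its outer mitochondrial enzyme gene YAT1 passed in none of the strains (4.88 to 7.47 FPKM). The cytosolic carnitine acetyltransferase gene YAT2 was lower in UTP6-OE (-0.58 ± 0.069, log2 ± SE, adjusted p = 0.000712) and PRP22-OE (-0.31 ± 0.069, adjusted p = 0.0185), the second of these lost without any 1 of the 4 libraries compared. CAT2, the mitochondrial and peroxisomal carnitine acetyltransferase, and CRC1, the inner membrane carnitine carrier, were lower in UTP6-OE (-0.47 ± 0.14, adjusted p = 0.0447 and -0.58 ± 0.17, adjusted p = 0.0413). CAT2 was lost without UTP6-OE culture 1 or either WT culture and CRC1 without UTP6-OE culture 2 or either WT culture, and neither passed with the median of ratios (0.0635 and 0.0559). The succinate-fumarate carrier gene SFC1 lay between 2.33 and 4.20 FPKM and passed in none.

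The 4 overexpression strains were also compared with each other, without WT. The moderated F-test of limma found a difference among them for 13 of the 37 genes (35.1%), where 22.1% of all tested features passed. These were CIT2, CIT3, IDH2, IDP2, KGD1, MDH2, ICL1, PYC1, ADR1, CAT8, JEN1, YAT2 and ALD4. Direct pairs, each adjusted over all features, separated UTP6-OE from LSM5-OE most often, with 1 of the 37 genes higher and 16 lower in UTP6-OE (background 6.4% and 16.4%). UTP6-OE against PRP22-OE gave 0 higher and 9 lower (3.73% and 6.35%), and UTP6-OE against TIF35-OE 0 higher and 6 lower (2.46% and 4.14%). TIF35-OE had 1 higher and 8 lower gene against LSM5-OE (2.5% and 8.88%) and 5 higher and 4 lower against PRP22-OE (5.39% and 5.93%), and PRP22-OE had 0 higher and 4 lower against LSM5-OE (0.728% and 4.09%). At an unadjusted p under 0.05, the genes higher numbered 0 in UTP6-OE against TIF35-OE, 1 in UTP6-OE against PRP22-OE and 2 in PRP22-OE against LSM5-OE, and voom called 0, 0 and 2. Shares of all tested features are not given here for unadjusted p, for voom or for the next fit. In the 7 libraries of longer fragments, where 3 of the strains have 1 culture each, 0 genes passed the F-test (16 at an unadjusted p under 0.05), and with voom 22 passed in all libraries.

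**Figure D3:**
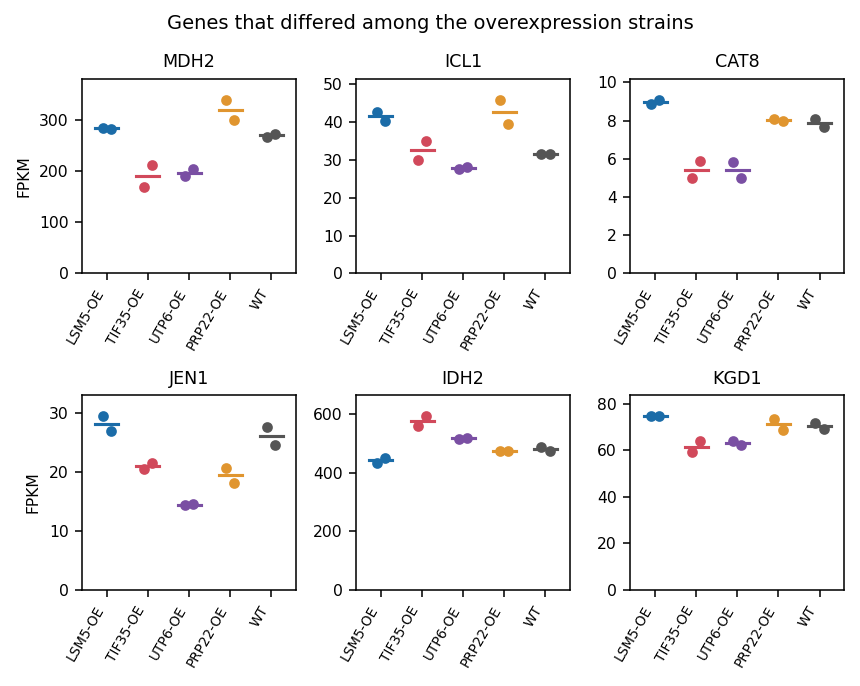
FPKM (vertical axis, starting at 0) of MDH2, ICL1, CAT8, JEN1, IDH2 and KGD1, which differed among the overexpression strains by the F-test, with a point for each culture and a line for the mean of the 2 cultures. The LSM5-OE and PRP22-OE points of MDH2, ICL1 and CAT8 lie above those of TIF35-OE and UTP6-OE.

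The order of the falls was not the same for all genes. CIT2 was lower in UTP6-OE than in LSM5-OE, with a log2 difference of -0.98 ± 0.068 (SE, adjusted p = 9.42e-05, 2.15e-09 to 0.0186 over the alternatives). Against TIF35-OE the difference of UTP6-OE was -0.73 ± 0.068 (SE, adjusted p = 0.000947, 1.46e-07 to 0.0807 over the alternatives), and against PRP22-OE it was -0.38 ± 0.068 (SE, adjusted p = 0.0144, 0.000152 to 0.176 over the alternatives). PYC1 was lower in UTP6-OE than in LSM5-OE, with a log2 difference of -0.79 ± 0.056 (SE, adjusted p = 0.000104, 2.99e-08 to 0.0252 over the alternatives). For both genes the order of the levels from low to high was UTP6-OE, PRP22-OE, TIF35-OE, LSM5-OE and WT with no overlap of cultures, and the step from TIF35-OE to LSM5-OE did not pass for CIT2 but passed for PYC1, with a difference of TIF35-OE from LSM5-OE of -0.24 ± 0.056 (SE, adjusted p = 0.0338, 0.00492 to 0.324 over the alternatives).

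ADR1 had another order, with UTP6-OE below TIF35-OE and both below PRP22-OE and LSM5-OE. The log2 difference of UTP6-OE from TIF35-OE was -0.36 ± 0.076 (SE, adjusted p = 0.0327, 0.00207 to 0.379 over the alternatives). UTP6-OE differed from PRP22-OE by -0.92 ± 0.076 (SE, adjusted p = 0.000550, 4.91e-07 to 0.116 over the alternatives), and TIF35-OE differed from PRP22-OE by -0.56 ± 0.076 (SE, adjusted p = 0.00464, 5.11e-05 to 0.273 over the alternatives). The difference of PRP22-OE from LSM5-OE did not pass. MDH2 likewise was lower in TIF35-OE than in PRP22-OE, with -0.75 ± 0.10 (SE, adjusted p = 0.00544), and than in LSM5-OE, with -0.58 ± 0.10 (SE, adjusted p = 0.0158). In UTP6-OE its difference was -0.70 ± 0.10 (SE, adjusted p = 0.00749) from PRP22-OE and -0.53 ± 0.10 (SE, adjusted p = 0.0112) from LSM5-OE. ALD4 was lower in TIF35-OE than in LSM5-OE, with -0.47 ± 0.057 (SE, adjusted p = 0.00386), and than in PRP22-OE, with -0.68 ± 0.057 (SE, adjusted p = 0.000472). In UTP6-OE the difference of ALD4 was -0.52 ± 0.057 (SE, adjusted p = 0.000867) from LSM5-OE and -0.73 ± 0.057 (SE, adjusted p = 0.000456) from PRP22-OE. Over the alternatives the adjusted p of these MDH2 and ALD4 differences reached 0.0512 to 0.159.

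**Figure D4:**
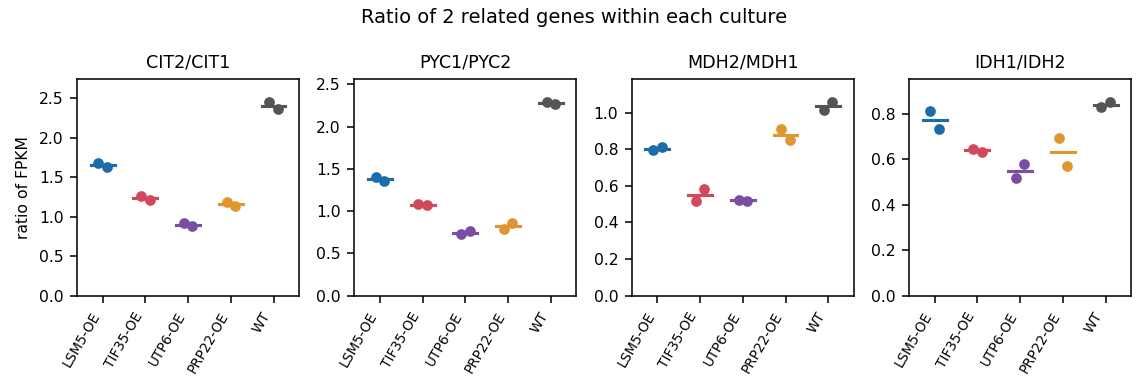
Ratio of FPKM between related genes within each culture (vertical axis, starting at 0), with a point for each culture and a line for the mean of the 2 cultures. Both WT points are the highest in all 4 panels, and CIT2/CIT1 falls below 1 in UTP6-OE alone, at 0.917 and 0.879.

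Other genes that respond to glucose differed between the same strains and WT, and their part in the values above was not tested. Of 9 genes of glucose uptake and growth state, 6 were higher and 0 lower in LSM5-OE, 7 and 1 in TIF35-OE, 6 and 1 in UTP6-OE and 7 and 0 in PRP22-OE. In either direction that is 66.7%, 88.9%, 77.8% and 77.8% of the 9, against 7.65%, 30.3%, 29.1% and 19.3% of all tested features. The 9 genes were listed with earlier results of these data known, so the gap between these shares is not a test of the list. The glucose transporter gene HXT7, which high glucose represses, had 1084 and 976 FPKM in LSM5-OE, 850.0 and 961 in TIF35-OE, 808 and 873 in UTP6-OE, 1392 and 1117 in PRP22-OE, against 384 and 395 in WT. The hexokinase gene HXK1, also repressed by glucose, had 716 and 706 FPKM in LSM5-OE, 659 and 691 in TIF35-OE, 683 and 687 in UTP6-OE, 856 and 769.8 in PRP22-OE, against 314 and 317 in WT. HXT2 was lower in TIF35-OE (-0.38 ± 0.087, log2 ± SE, adjusted p = 0.0151) and UTP6-OE (-0.78 ± 0.087, adjusted p = 0.000524) and did not pass in the other 2 strains.

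Of 13 further genes that glucose represses or that Adr1 or Cat8 activate, 2 were higher and 0 lower in LSM5-OE, 1 and 2 in TIF35-OE, 1 and 4 in UTP6-OE and 2 and 2 in PRP22-OE. In either direction that is 15.4%, 23.1%, 38.5% and 30.8% of the 13, against 7.65%, 30.3%, 29.1% and 19.3% of all tested features. The 13 were likewise listed with earlier results of these data known. The 2 that were higher in LSM5-OE and in PRP22-OE were GUT1, glycerol kinase (0.46 and 0.37 on the log2 scale), and GUT2, the mitochondrial glycerol-3-phosphate dehydrogenase (0.49 and 0.48). In TIF35-OE and UTP6-OE neither passed, with log2 values from -0.065 to 0.072. DLD1 was higher in TIF35-OE (0.28) and lower in UTP6-OE (-0.27) and PRP22-OE (-0.21). SPS19 was higher in UTP6-OE. The other lower genes were FOX2 and POT1 in TIF35-OE, ATO3, FOX2 and CTA1 in UTP6-OE, and ATO3 in PRP22-OE.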

How the data were processed

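RNA-seq libraries from 2 cultures of each of 5 strains were grouped by the strain and culture number of their labels. The authors' methods name HISAT2 (S288c genome), featureCounts, an edgeR filter and DESeq2, while the submitters' processing notes name STAR, RSEM, edgeR and limma. The build number, the strand setting and the program behind the deposited FPKM are not given in the sources used here. Both deposited tables held the same FPKM in all 58240 cells, so no count test was run. The FPKM follow an effective length (feature length less fragment length), from which fragments and fragment length were estimated, with 77.2% to 92.7% of the low values within 0.15 of a whole number. Sampling of fragments limits precision most for the genes of fewest fragments.

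The test was that of limma (version 3.58.1, R 4.3.3, lmFit and eBayes with trend) on log2(FPKM + 0.5), for the 5768 features that averaged at least 1 FPKM, in 1 fit of all 10 libraries with 5 residual degrees of freedom. P-values are two-sided, with Benjamini-Hochberg adjustment in each comparison, and measure only the spread between these cultures. Fold changes on this scale understate those of low genes. The script was tested on simulated data with 200 genes changed by 1.5 on the log2 scale, of which 100% were recovered with 3 false calls. That change is larger than those of the 37 genes, so the test does not show how well smaller ones are found. Per-culture values are given for the 3 largest rises and falls per strain among genes past the threshold, genes past it in the same or in opposite directions, and the regulators. IDH1, IDH2, MDH2 and JEN1 were added after their values were seen. The genes, lists and motifs were chosen with earlier results of these data known. Alternatives were a pseudocount of 0.1 or 1, a filter at 5 FPKM or none, scaling by the median of ratios or upper quartile, voom on estimated fragments, fragment length as a covariate, a replicate block, fits of only the strains compared and each culture left out. In a comparison of 2 strains only their own 4 libraries were left out in turn. Comparisons between 2 overexpression strains had no fit of only those strains. A fit of the 7 libraries of longer fragments and removal of a length trend (features of at least 400 bases) were chosen after seeing the data. Motifs and coordinates come from RefSeq R64, and figures used matplotlib 3.10.9.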

Additional observations from a re-analysis of the deposited data

Results flagged for a closer look

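For 7 genes, a pair of overexpression strains differed by the F-test and by their direct contrast, while their log2 differences from WT, past the threshold in 1 of the strains of the pair, had opposite signs. The difference of the other strain from WT did not pass for any of them, so opposite signs do not mean opposite changes. In LSM5-OE, for example, it was -0.13 for IDH2 (adjusted p = 0.176), 0.11 for IDP2 (0.630) and 0.085 for KGD1 (0.446). IDH2 was higher in TIF35-OE than in LSM5-OE, with a log2 difference of 0.38 ± 0.049 (SE, adjusted p = 0.00467, 3.78e-05 to 0.144 over the alternatives). IDP2 was lower in UTP6-OE than in LSM5-OE, with -0.54 ± 0.12 (SE, adjusted p = 0.0158, at most 0.1997 over the alternatives). KGD1 was lower in TIF35-OE than in LSM5-OE, with -0.28 ± 0.057 (SE, adjusted p = 0.0246, 0.00430 to 0.266 over the alternatives). MDH2 was lower in TIF35-OE than in PRP22-OE, with -0.75 ± 0.10 (SE, adjusted p = 0.00544, 3.98e-06 to 0.0761 over the alternatives). ICL1 was lower in UTP6-OE than in PRP22-OE, with -0.60 ± 0.094 (SE, adjusted p = 0.00807, 0.000294 to 0.120 over the alternatives). CAT8 was lower in UTP6-OE than in LSM5-OE, with -0.69 ± 0.14 (SE, adjusted p = 0.0134, 0.000142 to 0.0708 over the alternatives). JEN1 was lower in UTP6-OE than in LSM5-OE, with -0.94 ± 0.10 (SE, adjusted p = 0.000578, 8.89e-06 to 0.0483 over the alternatives). Of these, the JEN1 difference alone stayed at an adjusted p under 0.05 with all 15 alternatives used between overexpression strains. A fit of only the 2 strains was not among them.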

How the results depend on the processing

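No call of a named gene reversed its direction. Of the 42 fold changes of the 14 named genes that passed against WT, 17 stayed past the threshold under every alternative, and of their 672 alternative values 101 were no longer past it, 24 of them in the 7 libraries of longer fragments, where TIF35-OE, UTP6-OE and PRP22-OE have 1 culture each, assumed to vary like the others. In these 7 libraries the 37 genes gave 1 higher and 0 lower in LSM5-OE (6 and 3 in all libraries), 1 higher and 3 lower in TIF35-OE (7 and 9), 3 higher in UTP6-OE (7), and 3 higher and 3 lower in PRP22-OE (6 and 8), and 0 by the F-test (13). At an unadjusted p under 0.05 these zeros were 6 genes lower in LSM5-OE and 16 by the F-test. With voom, 5 were lower in LSM5-OE (3) and 22 passed the F-test. With fragment length as a covariate, 5 were lower in LSM5-OE. In fits of only the strains compared, 2 were higher and 0 lower in LSM5-OE (6 lower at an unadjusted p under 0.05) and 5 lower in PRP22-OE. In TIF35-OE 11 were higher with the median of ratios and 11 with the length trend removed. The causes were not tested. Apart from the median of ratios, shares of all tested features are not given here under these settings or with 1 library left out. A moved count may therefore hold for all features as well as for these genes.

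Leaving out 1 library at a time gave 1 to 4 higher and 0 to 3 lower in LSM5-OE, 3 to 7 higher and 3 to 6 lower in TIF35-OE, 3 to 5 higher and 8 to 11 lower in UTP6-OE, 4 to 6 higher and 4 to 6 lower in PRP22-OE, and 11 to 14 by the F-test. Differences between cultures 1 and 2 correlated between strains with r from -0.36 to 0.432. In features of at least 400 bases r ran from -0.236 to 0.202. These values alone do not show whether the culture numbers pair the samples, and the main fit left them unpaired. With the replicate block the counts were 5 higher and 2 lower in LSM5-OE, 7 and 7 in TIF35-OE, 7 and 12 in UTP6-OE and 6 and 7 in PRP22-OE, and 12 by the F-test. Depth limits SFC1, MLS1, CRC1 and FBP1 most, with 24 to 167 estimated fragments per library.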
